A study of Mus musculus with 16 samples.

Results

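The response of the castrated mouse caput epididymis to 1 injection of testosterone propionate was measured on 4 arrays, 2 from treated and 2 from vehicle-injected castrated mice, out of 16 arrays in the study. The genes described are the 13396, of 18193 with a probe set of a single symbol, whose mean intensity was above 16 in at least 1 of the 2 groups. Each gene was read from its brightest such probe set. Of these members, 12444 were above 16 in both groups, 384 in the testosterone group alone and 568 in the castrated group alone.

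Adult male mice of strain 129BL/6 were used throughout. The testosterone group had been castrated, left for 14 days, given 0.015 mg testosterone propionate (TP), and sampled 12 hours later. The estradiol group was castrated in the same way and received 0.015 mg estradiol. The castrated group received vehicle alone, 100 µL of 10% ethanol in sesame oil. Sham-operated mice that kept their testes and received vehicle were the remaining caput group. All treatments were in duplicate, 2 arrays each. The labels do not say whether duplicates came from separate or pooled animals, so p-values measure only the spread between these samples, which may be technical. Castration also removes the testis's other hormones, sperm and fluid, and 1 dose at 1 time gives no course of the response.

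The caput is the first large region of the epididymis, the duct in which sperm mature. Its principal cells secrete proteins onto passing sperm, and testosterone sustains much of that secretion. Testosterone propionate is an ester that is cleaved to testosterone in the body. Secreted proteins enter the endoplasmic reticulum, are folded and glycosylated there, and leave in coated vesicles for the Golgi.

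The 4 arrays had 69.4% to 76.0% of probe sets above background, set on each array by its brightest Bacillus control probe set (7.82 to 12.2 in intensity). The 3′ over 5′ ratio of actin, on the log2 scale, was 1.08 and 1.20 on the TP arrays, against 0.790 and 1.02 on the castrated arrays. That of Gapdh was -0.207 and -0.140 on the TP arrays, against -0.387 and -0.454 on the castrated arrays. Neither ratio overlapped between the groups, and the part of this difference in the results was not tested. Castrated replicate 2 stood apart in fat cell markers: the summed intensity of 9 such genes was 4734 on it, against 968 on castrated replicate 1 and 1634 and 1515 on the TP arrays. Both genes of the main steroid 5-alpha-reductases had no probe set with a single symbol and were not analysed here.

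Tissue identity was checked with 12 measured members among principal cell markers. Gpx5, a glutathione peroxidase secreted in the caput, had intensities of 3648 and 4722 on the TP arrays, against 3421 and 3073 on the castrated arrays. Lcn5, a retinoic acid-binding lipocalin of the epididymis, had 1402 and 3042 on the TP arrays, against 2215 and 2289 on the castrated arrays. Both caput genes were well above background on all 4 arrays, and neither passed the test (adjusted p = 0.436 and 0.947). On the sham arrays Gpx5 had 8388 and 8586 and Lcn5 had 11766.9 and 12020.5, a comparison that was not tested. Of the 12 members, 3 rose (Adam7, Defb41 and Crisp4), 1 fell (Ros1) and 8 did not pass. Lcn9, another lipocalin of the proximal epididymis, was not above background on any of the 4 arrays. The summed intensity of 13 principal cell markers was 20747 and 27430 in the testosterone group, against 16282 and 16668 in the castrated group. In bulk tissue, fewer cells of a type and less RNA per cell cannot be told apart.

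Testosterone propionate changed the levels of 273 members, 176 higher and 97 lower, with limma's adjusted p under 0.05 as the threshold. The background was 1.31% of the 13396 members called higher and 0.724% called lower, and over all 18193 genes fitted 304 (1.67%) passed. Among the called members, 145 were at least 2-fold higher and 74 at least 2-fold lower in the testosterone group. The smallest called difference was 0.74 on the log2 scale. The 2 groups did not overlap for any of the 273, while 59.7% of all members also had groups that did not overlap. The median log2 difference over all members was -0.04, and the median 95% interval was the estimate ± 0.46.

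Of the 273, 252 were above 16 in both groups, 12 in the testosterone group alone and 9 in the castrated group alone. The 5 members just inside the intensity limit had a higher group mean of 16.001 to 16.024, and the 5 genes just outside it one of 15.975 to 15.996.

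**Figure D1:**
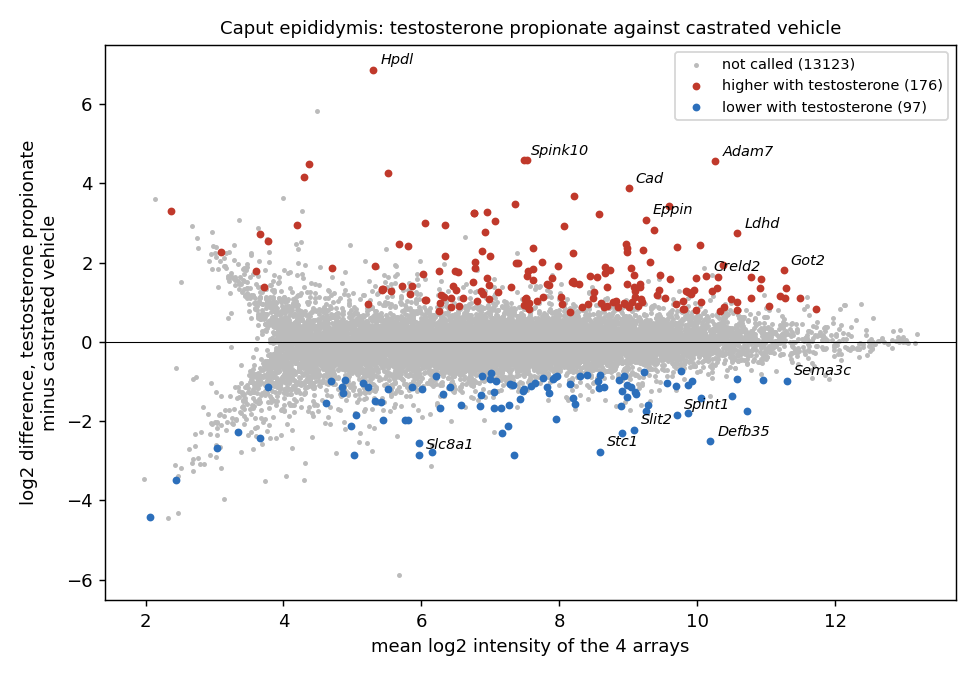
Log2 difference (testosterone propionate minus castrated vehicle, y axis) against mean log2 intensity of the 4 caput arrays (x axis) for 13396 members, 1 point a gene. Filled points mark the 176 genes higher and the 97 genes lower in the testosterone group at limma's adjusted p under 0.05, and grey points are the other members.

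The count of calls changed with the arrays fitted. Fitted without castrated replicate 1 the count over all genes was 9, without castrated replicate 2 it was 12, without testosterone replicate 1 it was 9 and without testosterone replicate 2 it was 6. Hpdl, Spink10 and Smarcd3 kept their call in each of those 4 fits. All 273 called members kept their direction in each, which was fixed in advance because their groups did not overlap. With only the 4 arrays compared, limma called none, 3117 genes having an unadjusted p under 0.05.

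Genes for secreted and surface proteins of the caput moved both ways. In a list of secreted and sperm-surface proteins of the epididymis, 5 of 26 members rose, 1 fell and 20 did not pass. The median log2 difference was 0.39. The gene that fell was Crybb1, a beta-crystallin, with 84.1 and 49.7 on the TP arrays, against 298 and 339 on the castrated arrays (adjusted p = 0.0414). Adam7, a protein of the sperm surface made in the epididymis, had 5299.9 and 6705 on the TP arrays, against 219 and 291 on the castrated arrays. The TP arrays were many times higher with no overlap, and the fold was 23.6 (log2 interval 4.06 to 5.06, adjusted p = 0.00496). For comparison, sham arrays had 8643 and 8372 and estradiol arrays 449.7 and 492.

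Eppin, a protease inhibitor that coats sperm, was at 1779.7 and 1782 on the TP arrays, against 201 and 219 on the castrated arrays. The testosterone values were nearly equal and lay far above both castrated values, at 8.5-fold (log2 interval 2.77 to 3.41, adjusted p = 0.00496). Another inhibitor gene, Spink10, had 945 and 822 on the TP arrays, against 35.1 and 38.4 on the castrated arrays. Spink5, which encodes an inhibitor of kallikrein-type proteases in skin, had 1092 and 1037, against 103 and 67.2. Both groups were again apart, at 24.0-fold (adjusted p = 0.00141) and 12.8-fold (adjusted p = 0.0141). On the sham arrays these genes stood at 2478 and 2578 for Spink10 and 2448 and 2764 for Spink5, above the TP arrays. Over the list of 26 members with protease inhibitor function, which does not hold Eppin, those 2 genes rose, 1 fell and 23 did not pass, and the median was -0.23.

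Spint1, a membrane inhibitor of the protease matriptase, was the inhibitor that fell: it had 453 and 431 on the TP arrays, against 1575 and 1586 on the castrated arrays. The castrated values were over 3 times the testosterone values (log2 difference -1.84, interval -2.26 to -1.42, adjusted p = 0.0213). On the sham arrays Spint1 had 445 and 452, both between the 2 testosterone values.

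Lypd8, a GPI-anchored protein known in the gut for binding flagellated bacteria, had 287 and 393 on the TP arrays, against 36.4 and 33.8 on the castrated arrays. It was higher on both TP arrays, 9.57-fold (adjusted p = 0.0122), while the sham arrays stood at 7389 and 7833. Crisp4, a cysteine-rich secreted protein that binds sperm, had 105 and 161 on the TP arrays, against 22.3 and 26.1 on the castrated arrays and 2007 and 2415 on the sham arrays. For both genes the TP arrays stayed well below the sham arrays 12 hours after injection, a comparison that was not tested. Rnase10, a secreted protein of the proximal epididymis, had 59.3 and 67.3 on the TP arrays, against 24.4 and 29.7 on the castrated arrays, and did not pass (adjusted p = 0.058). Its sham values of 10312 and 9692 were far higher, which was also not tested, and its estradiol values were 67.8 and 92.6.

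Prom1 and Prom2 encode pentaspan proteins of plasma membrane protrusions, and both rose. Prom1 had 2957 and 3264 on the TP arrays, against 983 and 1014 on the castrated arrays. Prom2 had 2419.7 and 2069 on the TP arrays, against 675 and 760.1 on the castrated arrays. Their groups did not overlap and the folds were 3.11 and 3.12 (adjusted p = 0.0287 and 0.0286). Both were also above the sham arrays, which had 1924 and 2389 for Prom1 and 1311 and 1469 for Prom2.

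The β-defensins, small antimicrobial peptides of which many are made in the epididymis, had 14 members, of which 1 rose, 1 fell and 12 did not pass. Defb41 had 2028 and 3150.0 on the TP arrays, against 199 and 275 on the castrated arrays. Defb35 ran the other way, with 448 and 535 on the TP arrays, against 2602 and 2975 on the castrated arrays. The groups were apart for both, Defb41 by 3.43 (adjusted p = 0.0147) and Defb35 by -2.51 (adjusted p = 0.0309) on the log2 scale. Among 7 lipocalin members Lcn12 alone passed: it had 366 and 413 on the TP arrays, against 42.5 and 51.0 on the castrated arrays, 8.36-fold apart (adjusted p = 0.0147).

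**Figure D2:**
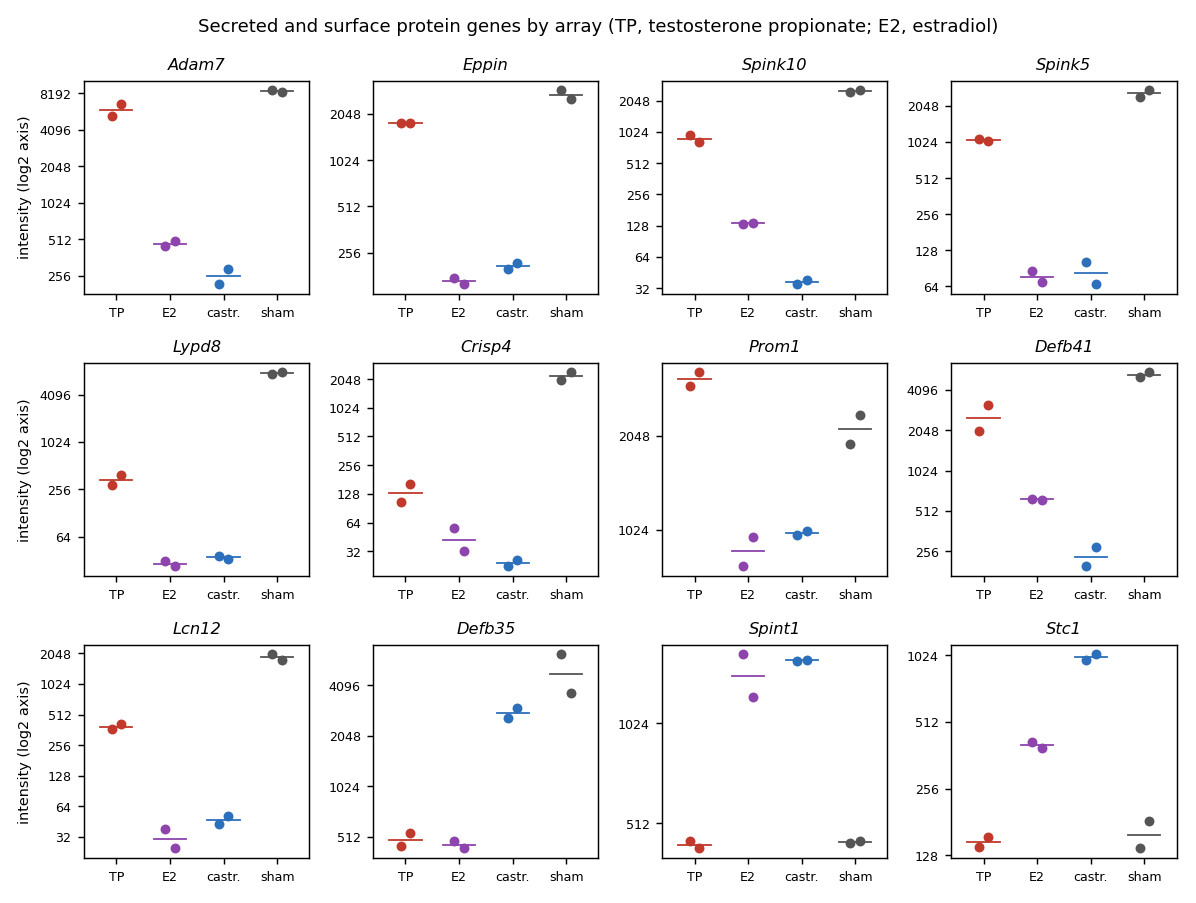
Intensity on a log axis for 12 genes of secreted, surface or signalling proteins on each of the 8 caput arrays, 1 point an array, with groups from left to right testosterone propionate, estradiol, castrated vehicle and sham vehicle. Horizontal bars are means of log2 intensity (n = 2). Adam7, Spink10, Eppin and Lypd8 were higher on the testosterone than on the castrated arrays, and Defb35, Spint1 and Stc1 were lower.

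The machinery that carries, folds and modifies secreted proteins held 17 genes that rose and none that fell. In 4 lists of genes for endoplasmic reticulum folding, protein entry, transport to the Golgi and N-glycosylation, 129 members together had a median log2 difference of 0.52, against -0.04 over all members. The other 112 did not pass, and 88 of the 129 were higher against 2 lower at an unadjusted p under 0.05, where 9.96% of all members were higher and 12.7% lower. The 17 were 1.73-fold to 4.08-fold higher in the testosterone group. Against estradiol, 17 of the 129 passed as higher and none as lower, with a median difference of 0.50.

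Among 41 members that fold proteins or dispose of misfolded ones, 7 rose, none fell and 34 did not pass. Creld2, a protein disulfide isomerase family member induced by endoplasmic reticulum stress, had 2004 and 1979 on the TP arrays, against 665 and 605 on the castrated arrays. Both testosterone values lay far above both castrated values (3.14-fold, log2 interval 1.36 to 1.94, adjusted p = 0.0147). Manf, a secreted stress-induced factor of the same compartment, had 3709 and 3555 on the TP arrays, against 1739.8 and 1625 on the castrated arrays, and Sdf2l1, which keeps folding clients soluble, had 505 and 376, against 105 and 109. Both were higher on both TP arrays, 2.16-fold and 4.08-fold (adjusted p = 0.0234 and 0.0396).

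Dnajc3, which restrains the kinase PERK, had 2208 and 1963 on the TP arrays, against 932 and 1048 on the castrated arrays. Dnajb11, a co-chaperone of the chaperone BiP, chosen after its values were seen, had 651 and 599 on the TP arrays, against 344 and 276 on the castrated arrays. Selenos, a selenoprotein that helps remove misfolded proteins, had 1561 and 1561 on the TP arrays, against 606 and 649 on the castrated arrays. The 3 genes rose 2.11-fold, 2.02-fold and 2.49-fold (adjusted p = 0.0451, 0.0495 and 0.0421). Erp44, which retrieves unassembled proteins from the early Golgi, rose less, to 1325 and 1352 in the testosterone group, against 787 and 739 in the castrated group (1.75-fold, adjusted p = 0.0414). Ern1 and Ficd were outside the list and were chosen after their values were seen. Ern1 encodes IRE1, the sensor that splices the mRNA of the factor XBP1, and had 1419 and 1469 on the TP arrays, against 575 and 629.8 on the castrated arrays (adjusted p = 0.0287). Ficd, an enzyme that adds AMP to BiP, had 146 and 139, against 60.1 and 55.7 (adjusted p = 0.0213). Xbp1, also chosen after its values were seen, was in the list, where 37 of 41 members were higher and 4 lower. Its log2 difference was -0.004 (adjusted p = 0.99), and splicing of its mRNA was not tested.

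Protein entry genes held 22 members, of which 3 rose, none fell and 19 did not pass. Srprb, a subunit of the receptor for the signal recognition particle, had 326 and 322 on the TP arrays, against 153 and 142 on the castrated arrays. Sec61b, part of the translocation channel, had 2032 and 2012 on the TP arrays, against 1201 and 1110.1 on the castrated arrays, and Ssr1, part of the translocon-associated complex, had 1691 and 1708, against 978 and 992. All were higher on both TP arrays, at 2.2-fold, 1.75-fold and 1.73-fold (adjusted p = 0.0309, 0.043 and 0.043). Further probe sets of Srprb differed less, by 0.05 and 0.38 on the log2 scale, against 1.14 on the chosen one.

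In transport between the endoplasmic reticulum and the Golgi, 5 of 33 members rose, none fell and 28 did not pass. Lman2, a cargo lectin, had 1008 and 948 on the TP arrays, against 286 and 319.7 on the castrated arrays. Kdelr3, a receptor that returns resident proteins from the Golgi, had 200.4 and 213 on the TP arrays, against 83.3 and 71.3 on the castrated arrays. The groups were apart for both, at 3.23-fold and 2.68-fold (adjusted p = 0.0218 and 0.0249). The coat proteins Sec23b, with 1199 and 1124 in the testosterone group against 627 and 566 in the castrated group, and Sec24d, with 655 and 719 against 377 and 335, rose less (adjusted p = 0.0368 and 0.0414). Mia3, which loads large cargo such as collagens, also passed (1.78-fold, adjusted p = 0.0488), although a second, dim probe set of it ran the other way (log2 difference -2.61).

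Of 33 members that build N-linked sugars, 2 rose, none fell and 31 did not pass, with a median of 0.52. Gmppb, which makes GDP-mannose, had 363 and 378 on the TP arrays, against 116 and 93.4 on the castrated arrays (3.55-fold, adjusted p = 0.0341). Uggt1, the sensor that sends unfolded glycoproteins back for folding, had 936 and 925 on the TP arrays, against 403 and 319 on the castrated arrays (2.59-fold, adjusted p = 0.0396). Neither gene's groups overlapped, and Rpn1, a subunit of the oligosaccharyltransferase, missed the threshold with 4106 and 4394 on the TP arrays, against 2269 and 2249 on the castrated arrays (adjusted p = 0.0562).

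**Figure D3:**
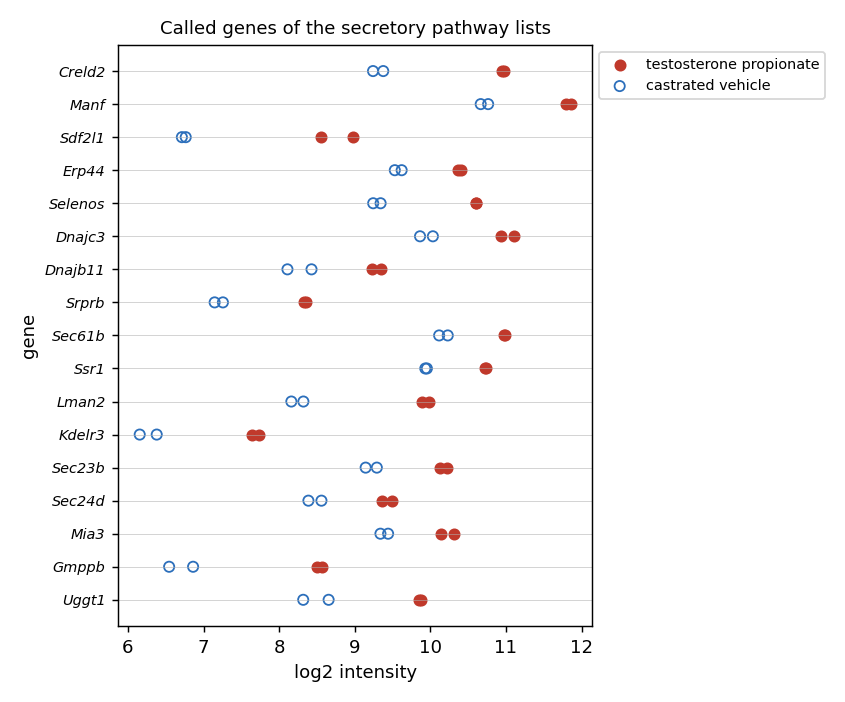
Log2 intensity (x axis) of the 17 called members of the endoplasmic reticulum folding, protein entry, Golgi transport and N-glycosylation lists on each array, with 1 row a gene and points for testosterone propionate (filled) and castrated vehicle (open). Both TP arrays lie to the right of both castrated arrays in every row.

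Promoters are shown because several hold elements known to be bound in the unfolded protein response. The sequences are from RefSeq (GRCm38.p6), 250 bases before to 50 after the gene start or windows of them, and run 5′ to 3′ on the gene's strand. In the first set the capitals mark the element made of CCAAT, 9 bases of any kind and CCACG, bound by ATF6 with NF-Y, on either strand. Creld2 is shown whole (chr15:88819396-88819695, plus strand), with windows of Dnajc3 (chr14:118937812-118937860, plus strand), Pdia6 (chr12:17266476-17266524, plus strand), Hspa5 (chr2:34772010-34772058, plus strand) and Hsp90b1 (chr10:86705623-86705671, minus strand).
Creld2: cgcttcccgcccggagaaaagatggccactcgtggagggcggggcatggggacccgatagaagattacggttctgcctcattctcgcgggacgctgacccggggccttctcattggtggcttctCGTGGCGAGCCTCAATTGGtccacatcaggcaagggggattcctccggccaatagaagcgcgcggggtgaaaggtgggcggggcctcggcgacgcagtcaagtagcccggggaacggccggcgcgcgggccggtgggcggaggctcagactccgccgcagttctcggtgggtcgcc
Dnajc3: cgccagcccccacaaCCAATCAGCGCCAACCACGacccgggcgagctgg
Pdia6: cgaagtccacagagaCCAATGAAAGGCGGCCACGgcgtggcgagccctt
Hspa5: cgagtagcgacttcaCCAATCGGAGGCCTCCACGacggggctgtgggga
Hsp90b1: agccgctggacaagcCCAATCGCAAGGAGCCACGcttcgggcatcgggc

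This element was found in 37 of 27025 genes with a promoter (0.137%), in 15 of the 10765 members with one (0.139%), and in 10 of the 37 members of the folding list that have one (27.0%). Of those 10, 9 were higher and 1 lower in the testosterone group, 8 of the 9 at an unadjusted p under 0.05, with a median of 0.78. Of the whole folding list, 37 of 41 members were higher, 30 of them at that threshold, with a median of 0.60. Creld2 and Dnajc3 were the called ones. Pdia6, a disulfide isomerase, had 2312 and 2117 on the TP arrays, against 1382 and 1355 on the castrated arrays, and missed the threshold (adjusted p = 0.0602). Hspa5, which encodes BiP, had 6658 and 8282 on the TP arrays, against 4811 and 4942 on the castrated arrays (log2 difference 0.61, adjusted p = 0.112). Hsp90b1, the chaperone GRP94, had 4774 and 5075, against 3565 and 2959 (log2 difference 0.60, adjusted p = 0.115).

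Another set holds TGACGTGG, the core bound by XBP1, on either strand and in capitals. Kdelr3 is shown whole (chr15:79516158-79516457, plus strand), with windows of Sec24d (chr3:123267455-123267492, plus strand), Hk2 (chr6:82774485-82774522, minus strand) and Asb11 (chrX:164436889-164436926, plus strand).
Kdelr3: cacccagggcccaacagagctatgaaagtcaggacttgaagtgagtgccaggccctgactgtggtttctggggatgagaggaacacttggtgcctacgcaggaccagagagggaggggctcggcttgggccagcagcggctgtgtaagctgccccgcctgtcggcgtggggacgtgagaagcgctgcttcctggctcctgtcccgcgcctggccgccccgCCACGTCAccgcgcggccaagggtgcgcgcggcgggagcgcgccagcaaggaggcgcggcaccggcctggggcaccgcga
Sec24d: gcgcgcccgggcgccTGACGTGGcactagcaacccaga
Hk2: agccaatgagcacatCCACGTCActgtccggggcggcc
Asb11: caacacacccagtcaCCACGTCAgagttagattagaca

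This core was in 193 promoters (0.714% of genes), in 120 of the 10765 members with a promoter (1.11%), in 5 of the 149 called-higher members with a promoter (3.36%), and in none of the 76 called-lower ones. In the Golgi transport list it was in 5 of 27 (18.5%). All 5 were higher in the testosterone group at an unadjusted p under 0.05, by 0.35 to 1.42 on the log2 scale. Of the whole list, 32 of 33 members were higher, 22 of them at that threshold. Asb11, a substrate adaptor of a ubiquitin ligase known in human cells to act on the cell death protein BIK, had 989 and 826 on the TP arrays, against 50.7 and 28.0 on the castrated arrays (24.0-fold, adjusted p = 0.0141). A match of letters is a description, and binding of any factor was not measured.

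Enzymes of nucleotide, one-carbon and polyamine synthesis included 5 genes that rose and none that fell. Cad, the enzyme that starts pyrimidine synthesis, was the called member of 21 in its list, with 1902 and 2047 on the TP arrays, against 135 and 133 on the castrated arrays. The testosterone group was 14.7-fold higher (log2 interval 3.36 to 4.40, adjusted p = 0.0102), with 2636 and 2697 on the sham arrays. The median of the pyrimidine list was 0.10, and 20 members did not pass. Of 23 members in purine and one-carbon metabolism, 3 rose, none fell and 20 did not pass, with a median of 0.06.

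Mthfd2, a mitochondrial folate enzyme, had 1205 and 1096 on the TP arrays, against 207 and 241 on the castrated arrays. It was 5.15-fold higher (adjusted p = 0.0287), and its sham values of 438 and 475 lay below both testosterone values. Phgdh, the entry enzyme of serine synthesis, had 1018 and 892 on the TP arrays, against 359.9 and 336 on the castrated arrays, and Shmt2, which takes a carbon from serine in mitochondria, had 488 and 466, against 229 and 263. Their folds were 2.74 and 1.95 (adjusted p = 0.0414 and 0.0414). Further probe sets of Shmt2 had log2 differences of 1.15, 1.27 and 0.02, against 0.96 on the chosen one. Srm, spermidine synthase, was the called member of 9 in the polyamine list, with 494 and 545 on the TP arrays, against 217 and 162 on the castrated arrays (adjusted p = 0.0414).

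Hpdl, a mitochondrial dioxygenase-like enzyme, had the largest rise among the called members, with 441 and 412 on the TP arrays, against 3.93 and 3.41 on the castrated arrays. Both castrated values were below background, so the difference is at least 45.1-fold (adjusted p = 0.00141), and the sham arrays had 369 and 327. Further mitochondrial enzymes were among the called members. Ldhd, which oxidises D-lactate, had 3912 and 3977 on the TP arrays, against 640.2 and 548 on the castrated arrays. Suox, sulfite oxidase, had 1859.6 and 1669 on the TP arrays, against 277 and 224 on the castrated arrays. Got2, the mitochondrial aspartate aminotransferase, had 4205 and 4967, against 1269 and 1339. The 3 were 6.66-fold, 7.06-fold and 3.5-fold higher (adjusted p = 0.0208, 0.0122 and 0.0147). For Ldhd the testosterone values were also above the sham values of 1148 and 1519. In the oxidative phosphorylation list Cycs, cytochrome c, rose (2.14-fold, adjusted p = 0.0398), and the other 28 of 29 members did not pass (median 0.10).

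Glucose and lipid genes were split. Of 23 glycolysis and hypoxia members 2 rose, 1 fell (Stc1) and 20 did not pass (median -0.13). Hk2, a hexokinase, had 739 and 745 on the TP arrays, against 221 and 222 on the castrated arrays, and Slc2a3, a glucose transporter, had 556 and 435, against 172 and 174. For both genes the TP arrays lay above the castrated arrays without overlap, at 3.35-fold and 2.84-fold (adjusted p = 0.0141 and 0.0253). Outside the list, Aldoc, an aldolase, had 601 and 706 on the TP arrays, against 1719 and 1749 on the castrated arrays, a log2 difference of -1.41 (adjusted p = 0.043). Cholesterol synthesis had a median of 0.62 over 20 members, with 18 higher. Of the 18, 11 had an unadjusted p under 0.05, as did 9.96% of all members in that direction. There Nsdhl, a demethylation enzyme, was the called gene (2.76-fold, adjusted p = 0.0147). Insig1, which holds back the pathway's transcription factor, had 312 and 379 on the TP arrays, against 129 and 129.9 on the castrated arrays, and missed the threshold (adjusted p = 0.0543). None of 22 fatty acid synthesis members passed, and the median was 0.04.

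Some glutathione transferases of the mu class rose: among 27 members of the glutathione and NRF2 list, Gstm2 and Gstm1 were called, none fell and 25 did not pass (median 0.05). Gstm2 had 3989 and 4009.7 on the TP arrays, against 1529 and 1572 on the castrated arrays, and Gstm1 had 4114 and 4347, against 1927 and 1970.2. These were 2.58-fold and 2.17-fold higher (adjusted p = 0.0213 and 0.0226). The mu-class genes are close copies of each other, and whether their probe sets separate them was not tested.

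Of 37 members known as androgen targets in other tissues, 1 rose, none fell and 36 did not pass, with a median of 0.08. The riser was Fkbp5, a co-chaperone of steroid receptors, with 1819 and 1717 on the TP arrays, against 602 and 557 on the castrated arrays (3.05-fold, adjusted p = 0.0147). Its sham values, 1540.2 and 1715, were near those of the testosterone group. Ndrg1, a stress-response gene induced by androgen in prostate cells, had 667 and 804 on the TP arrays, against 1771 and 1977 on the castrated arrays, and did not pass (adjusted p = 0.12). None of 15 members encoding steroid receptors, their coactivators and steroid enzymes passed. The glucocorticoid receptor gene Nr3c1 had 426 and 444 on the TP arrays, against 638 and 591 on the castrated arrays (log2 difference -0.50, interval -0.81 to -0.19, adjusted p = 0.12). The estrogen receptor gene Esr1 had 822 and 1097 on the TP arrays, against 903 and 1065 on the castrated arrays, and its groups overlapped (interval -0.52 to 0.43, adjusted p = 0.93).

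Chromatin remodelling was not on any list. Smarcd3, a subunit of SWI/SNF complexes, had 1226 and 1114 on the TP arrays, against 127 and 122 on the castrated arrays. It was 9.39-fold higher (adjusted p = 0.00434), above the sham values of 491 and 536. Smarca1, an ISWI-type ATPase chosen after its values were seen, had 502 and 401 on the TP arrays, against 80.6 and 92.1 on the castrated arrays, 5.21-fold higher (adjusted p = 0.0148), with 92.8 and 101 on the sham arrays. Alpl, alkaline phosphatase, had 223 and 227, against 32.5 and 26.0 (7.74-fold, adjusted p = 0.00835).

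Transport across the epithelium changed in both directions: of 34 ion and water transport members 3 rose, 1 fell and 30 did not pass (median 0.08). Rhcg, an ammonia transporter, had 503 and 592 on the TP arrays, against 62.2 and 38.4 on the castrated arrays and 1642 and 1846 on the sham arrays. Kcnk1, a potassium leak channel, had 3367 and 3737 on the TP arrays, against 1583 and 1569 on the castrated arrays. These rose 11.2-fold and 2.25-fold (adjusted p = 0.0213 and 0.0271). The voltage-gated potassium channel gene Kcnc4 was below background on both castrated arrays and at 95.3 and 100.3 on the TP arrays. On this probe set it was at least 10.3-fold higher (adjusted p = 0.0141). A further, dim probe set of Kcnc4 differed less, by 1.52 on the log2 scale, against 4.48 on the chosen one. Slc8a1, the sodium-calcium exchanger, had 22.2 and 24.4 on the TP arrays, against 163 and 172 on the castrated arrays, a log2 difference of -2.84 (adjusted p = 0.0147). Of 24 tight junction members Cldn3, a sealing claudin, rose 2-fold (adjusted p = 0.0287), and 23 did not pass.

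Among the 97 genes that fell were signalling and survival genes that were high on the castrated arrays. Stc1, the secreted hormone stanniocalcin, had 139 and 155 on the TP arrays, against 978 and 1034 on the castrated arrays. Slit2, a secreted guidance ligand, had 242 and 261 on the TP arrays, against 1064 and 1286 on the castrated arrays. Stra6, the membrane receptor for retinol uptake, had 25.6 and 25.9, against 142 and 162. The castrated values were over 4 times the testosterone values in each, with log2 differences of -2.77, -2.22 and -2.56 (adjusted p = 0.0128, 0.0147 and 0.0147). On the sham arrays they had 138 and 183 for Stc1, 190.4 and 233 for Slit2 and 36.9 and 39.8 for Stra6.

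Sema3c, a semaphorin, had 1810.3 and 1781 on the TP arrays, against 3533 and 3525 on the castrated arrays (log2 difference -0.97, adjusted p = 0.0349). Rdh10, which makes retinaldehyde from retinol and was chosen after its values were seen, had 165 and 185 on the TP arrays, against 596 and 451 on the castrated arrays (adjusted p = 0.0414). Of 24 members of the BCL2 family list, 1 fell, none rose and 23 did not pass. That was Bcl2 itself, the cell survival gene, with 348 and 356 on the TP arrays, against 827 and 923 on the castrated arrays (log2 difference -1.31, adjusted p = 0.0213). Further probe sets of Bcl2 had log2 differences of -1.29, -0.71, -0.57 and -0.27.

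Of 27 immediate-early and cytokine feedback members, 3 fell, none rose and 24 did not pass, with a median of -0.54. Gadd45b, a growth arrest gene, had 82.3 and 77.3 on the TP arrays, against 229.9 and 284 on the castrated arrays. Nr4a2, an orphan nuclear receptor, had 28.9 and 27.8 on the TP arrays, against 126 and 98.7 on the castrated arrays, and Ccn2, a matricellular protein, had 249 and 299.7, against 920.3 and 760.2. All 3 were lower on both TP arrays, with log2 differences of -1.68, -1.97 and -1.61 (adjusted p = 0.0213, 0.043 and 0.0465). Of 24 members in receptor tyrosine kinase and ERK signalling and its feedback, Ros1, a receptor tyrosine kinase needed for the initial segment, was the called one (log2 difference -1.25, adjusted p = 0.0434), with 106 and 126 on the TP arrays, against 304 and 249 on the castrated arrays and 735 and 726 on the sham arrays.

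Interferon-stimulated genes had a median of -0.53 over 33 members, with 31 lower and 2 higher, but none passed. At an unadjusted p under 0.05, 14 were lower and 1 higher, where 12.7% of all members were lower and 9.96% higher. The element made of GAAA, 2 bases of any kind and GAAA, the letters of the interferon-stimulated response element, was in 3.99% of all promoters, in 3.58% of members with a promoter and in 14 of the 23 list members with a promoter (60.9%). All 14 were lower in the testosterone group, with a median of -0.65, and 8 of them at an unadjusted p under 0.05. Ddx60 and Herc6, which are induced by interferon, were outside the list and were chosen after their values were seen. Ddx60 had 19.3 and 19.6 on the TP arrays, against 42.1 and 43.1 on the castrated arrays (adjusted p = 0.0414). Herc6 had 22.5 and 25.7 on the TP arrays, against 71.7 and 63.4 on the castrated arrays (adjusted p = 0.0315). Of the 21 macrophage marker members none passed, and the summed intensity of the 22 measured macrophage markers was 6960.1 and 8518 on the TP arrays, against 6546 and 7869 on the castrated arrays.

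**Figure D4:**
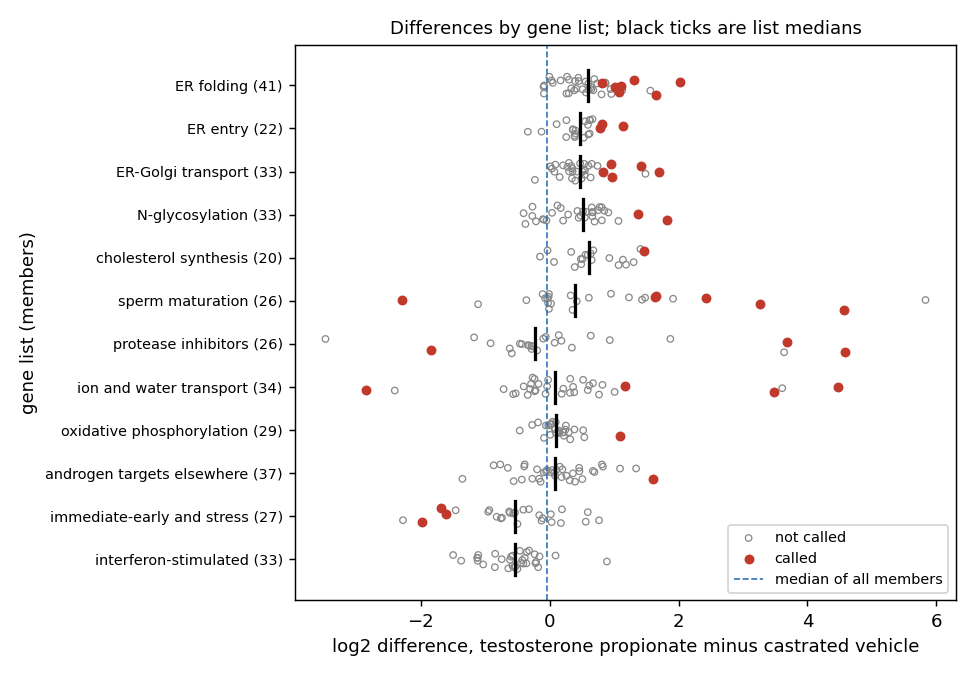
Log2 difference (testosterone propionate minus castrated vehicle, x axis) of the members of 12 gene lists, 1 row a list and 1 point a gene, with called genes filled. Vertical ticks mark list medians, 0.60 for folding and -0.53 for interferon-stimulated genes, and the dashed line is the median of all members, -0.04.

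The same arrays were compared directly with those of the estradiol-injected castrated mice, which asks how far the androgen response differs from an estrogen response. Among members, 188 were higher (1.4%) and 159 lower (1.19%) in the testosterone than in the estradiol group at limma's adjusted p under 0.05. Over all genes fitted 386 passed. Without testosterone replicate 1 or without estradiol replicate 2 none of the 18193 passed, without testosterone replicate 2 it was 13 and without estradiol replicate 1 it was 4. The summed intensity of 9 fat cell markers was 3481 and 7316 on the estradiol arrays, against 1634 and 1515 on the TP arrays. The 8 fat cell members had a median log2 difference of -2.235 against estradiol, and 1 was called lower. The part of this difference in the hormone comparison was not tested. The comparisons of testosterone and of estradiol with castrated mice share the castrated arrays, so the levels are given side by side. Adam7 differed between testosterone and estradiol by 3.66 on the log2 scale (interval 3.16 to 4.16, adjusted p = 0.0104), Hpdl by 5.27 (adjusted p = 0.00681), Cad by 3.36 (adjusted p = 0.0131), and Smarcd3 by 2.92 (adjusted p = 0.00712). Hpdl stood at 441 and 412 on the TP arrays and 12.6 and 9.75 on the estradiol arrays, against 3.93 and 3.41 on the castrated arrays.

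Other genes had like levels under both hormones. Of those given here, Rasd1, Hal and Defb35 were among the called members chosen for the smallest difference between the hormones. Their like levels follow from that choice. Gstm2 had 3989 and 4009.7 on the TP arrays and 3462 and 4002 on the estradiol arrays, against 1529 and 1572 on the castrated arrays. Rasd1, a small GTPase induced by steroid hormones, had 1139.6 and 1417 on the TP arrays and 1127 and 1466 on the estradiol arrays, against 367 and 421 on the castrated arrays. For these genes the hormone difference was 0.10 (log2 interval -0.21 to 0.42) and -0.02 (interval -0.52 to 0.48), and neither passed the test. Hal, histidine ammonia-lyase, had 30.3 and 35.9 on the TP arrays and 41.8 and 29.9 on the estradiol arrays, against 6.27 and 5.11, both below background, on the castrated arrays. Defb35, which fell, had 448 and 535 on the TP arrays and 484 and 437 on the estradiol arrays, against 2602 and 2975 on the castrated arrays (hormone difference 0.09, interval -0.61 to 0.79).

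For F3, Ankrd6 and Pde7b, which fell with testosterone, the estradiol arrays were above the castrated ones, a comparison that was not tested. These genes were chosen for their large differences between the hormones. F3, tissue factor, had 279 and 265 on the TP arrays and 1269 and 1385 on the estradiol arrays, against 590.4 and 595 on the castrated arrays. Ankrd6, a modulator of Wnt signalling, had 39.4 and 47.4 on the TP arrays and 367 and 375 on the estradiol arrays, against 134 and 142 on the castrated arrays. The 2 hormones differed by -2.29 for F3 and -3.10 for Ankrd6 (log2, adjusted p = 0.0131 and 0.00712). Pde7b, a cyclic AMP phosphodiesterase, differed by -2.35 (adjusted p = 0.0134), with 136 and 118 on the TP arrays and 589 and 704 on the estradiol arrays, against 443 and 535 on the castrated arrays.

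**Figure D5:**
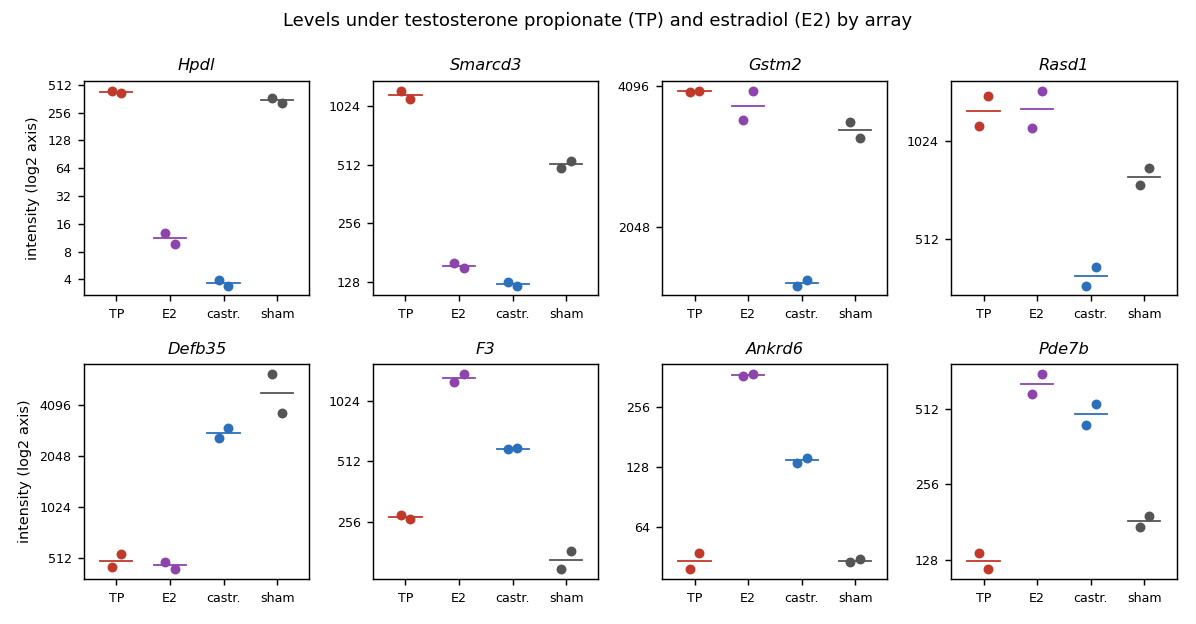
Intensity on a log axis for 8 genes on each caput array, with groups from left to right testosterone propionate, estradiol, castrated vehicle and sham vehicle, and bars at the mean of log2 intensity (n = 2). Hpdl and Smarcd3 were higher under testosterone than under estradiol, Gstm2, Rasd1 and Defb35 had like levels under both, and F3, Ankrd6 and Pde7b were lower under testosterone than under estradiol.

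Markers of other cell types were read beside these results. Of 19 fibroblast members, Col1a1 and Col1a2, chains of type I collagen, rose and 17 did not pass; Col1a1 had 340.3 and 337 on the TP arrays, against 88.2 and 81.3 on the castrated arrays. Col1a1 had a log2 difference of 2.00 here and of 1.34, which did not pass, on the probe set brightest by mean linear intensity. The summed fibroblast intensity was 12344 and 13450 in the testosterone group, against 11280 and 12315 in the castrated group. The lower TP sum was close to the higher castrated sum. Of the 19 members, 12 were higher and 7 lower in the testosterone group. At an unadjusted p under 0.05, 6 were higher and 2 lower, where 9.96% of all members were higher and 12.7% lower. Ccno, a cyclin needed to make many cilia, was the called member of 18 ciliated cell markers (9.66-fold, adjusted p = 0.00496). For basal cells, smooth muscle, endothelium, lymphocytes, fat cells, neutrophils and mast cells, germ cells, testis somatic cells and red cells none of their members passed. Neutrophil and mast cell markers summed to 393 and 367 on the TP arrays, against 713 and 695 on the castrated arrays, and Cxcr2, Mcpt4 and Ms4a2 were not above background on any of the 4. Clear and narrow cell markers summed to 2250.4 and 2269 on the TP arrays, against 2776 and 2821 on the castrated arrays. In that list Atp6v0d2, a proton pump subunit, fell (log2 difference -1.75, adjusted p = 0.0244) and Rhcg rose. The part of these markers in the other results was not tested.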

How the data were processed

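RNA from 16 mouse samples was hybridised to one-colour Affymetrix arrays of 45101 probe sets. The 8 caput arrays (4 groups of 2) were analysed. Total RNA was extracted with TRIzol and 10 µg labelled with the One-Cycle kit, per the labels' protocols. The deposited values are intensity on a linear scale; they were made with RMA, per the submitters' processing notes, yet are neither log2 values nor quantile-equal, each array having a mean of 125 after 2% of probe sets are trimmed at each end. That scaling keeps differences in distribution between arrays.

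Probe sets with 1 symbol (34958; 932 had several, 9211 none) were named from the platform annotation. Of each gene's probe sets the one with the highest mean log2 over all 16 arrays stood for it, giving 18193 genes. Mean log2 was preferred to mean linear intensity after the counts of calls under both were seen. Among 124 called members with further probe sets above 16, 207 of 222 such probe sets ran the same way, a count of direction alone.

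Log2 intensity was fitted with limma 3.58.1 (R 4.3.3), 1 model of the 8 caput arrays, with Benjamini-Hochberg adjustment over all 18193 genes and a threshold of 0.05. The fit was tested on simulated data. Groups below the brightest Bacillus control on both arrays give folds as bounds, against the higher of that level and the measured value on each array. The number of arrays limits the precision. The lists (32 of pathways or caput functions, 14 of cell markers), the members and the naming rule were chosen with earlier results of these data known. That rule takes the largest and brightest called changes, the smallest p in each list, a few fixed genes and those with printed promoters. It also takes the called members with the largest and the smallest differences from estradiol. Alternatives changed the filter, variance prior, floor, normalization, probe set rule, arrays fitted and the replicate block, and left out each array. Python 3.11.15 with pandas 2.3.3 made the tables and matplotlib 3.10.9 the figures.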

Additional observations from a re-analysis of the deposited data

How the results depend on the processing

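The number of calls depended strongly on the fit. Against the castrated group 304 genes passed, and this became 1067 with only genes above a mean of 16, 1687 with an intensity trend in the variance prior, 1934 with both (added after seeing the data), 926 with values under 16 set to 16, 118 with the mean of all probe sets, and 0 with only the 4 arrays compared (3117 at an unadjusted p under 0.05). It was 6 to 12 without 1 array, and the direct comparison with estradiol, 386 genes, gave 0 to 13. Those without any call, lacking testosterone replicate 1 or estradiol replicate 2, had 2527 and 3055 genes at an unadjusted p under 0.05. The same changes gave 930, 1396, 1590, 781, 153 and 0 for estradiol (2485 at an unadjusted p under 0.05). Quantile normalization (308 and 374) and 1 model of all 16 arrays (378 and 448) stayed within 1.5 times, as did taking the probe set brightest by mean linear intensity (301 and 387, added after seeing the data), which is another probe set for 449 genes and ended the call of Col1a1. Some of these fits hold fewer genes or arrays by construction. The cause of the shifts was otherwise not tested. The higher and lower calls were 186 and 118 as reported, and 842 and 845 with the trend.

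With the replicate number as a replicate block, 7 genes passed against castrated and 9 against estradiol. The replicate numbers did not pair the samples: same-numbered deviations from group means correlated between -0.08 and 0.05. The 14 alternatives tested 95 of the genes named with a difference, 82 of them called. The direction held in all that tested a gene, except for 2 genes that were not called. Changing only the filter, the variance prior, the other groups fitted or the replicate block cannot alter the difference. Leaving out 1 array cannot reverse genes whose groups do not overlap. Esr1 lay between -0.25 and 0.16 when 1 array was left out, above 0 without testosterone replicate 1 (0.16) and without castrated replicate 2 (0.07). Lcn5 lay between -0.68 and 0.43, above 0 without testosterone replicate 1. Dim genes are limited by background, and each group has 2 arrays.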

Other observations

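Other lists held few called genes. Of 33 members that charge or import amino acids, Wars, the tryptophan tRNA synthetase, rose, none fell and 32 did not pass (median 0.23). It had 2933 and 2847 on the TP arrays, against 1531 and 1548 on the castrated arrays (limma's adjusted p = 0.0398), and the groups did not overlap. None of 31 ribosome biogenesis members passed (median 0.15), nor did any of 18 antigen presentation members (median -0.25) or 19 transcription factors of epididymal segments (median -0.02). Of 27 estrogen-responsive genes of the uterus Rasd1 rose. Of 20 members of secretory granules Syt12, a synaptotagmin, rose (adjusted p = 0.0473). It had 106 and 65.7 on the TP arrays, against 8.46 and 2.58 on the castrated arrays, of which the second was below background, so no fold is given.

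Circadian clock genes had 19 members, and none passed: at an unadjusted p under 0.05, 4 were higher and 5 lower, where 9.96% of all members were higher and 12.7% lower. The labels used here give no time of day of sampling. Dbp, a clock output factor, had 216 and 272 on the TP arrays, against 543 and 836 on the castrated arrays (adjusted p = 0.0684), and Per3, a period gene, had 73.6 and 77.0 on the TP arrays, against 137 and 166 on the castrated arrays (adjusted p = 0.0557). Both were lower on both TP arrays, and neither passed the test. Of 24 cell cycle members Kntc1, a kinetochore gene, fell. It was below background on both TP arrays and at 17.0 and 22.2 on the castrated arrays, at least 1.85-fold lower (adjusted p = 0.0275).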
